A study of Mus musculus with 6 samples.

Results

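The Dlk1-Meg3-Dio3 locus of mouse chromosome 12 is a cluster of imprinted genes, that is, genes read from the chromosome of 1 parent only. The paternal chromosome gives the mRNAs of Dlk1, Rtl1 and Dio3, and the maternal chromosome gives the long non-coding RNAs (lncRNAs) Meg3, which is also called Gtl2, Rian and Mirg, as well as an RNA antisense to Rtl1. The maternal transcripts carry many microRNAs and small nucleolar RNAs, and the locus is known for strong expression in fetal tissue and for its decline after birth in many organs. In the testis DLK1 is known from immature cells of the Leydig lineage, and DIO3, which inactivates thyroid hormone, is of interest because thyroid hormone limits the multiplication of immature Sertoli cells. The arrays measured the sum of both alleles, so these values say nothing about imprinting itself.

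The members were the transcripts read by lncRNA probes whose symbol in the study's table of called lncRNAs was Meg3, Gtl2, Rian or Mirg, or whose target was a RefSeq accession of these genes, together with the mRNA probes for the RefSeq accessions of Dlk1, Rtl1 and Dio3. This rule found 10 of the 37181 transcripts on the array, namely 7 of 14717 lncRNA transcripts and 3 of 22464 mRNA transcripts. Meg3 and Gtl2 had 3 probes each under their separate symbols, Rian, Dlk1, Rtl1 and Dio3 had 1 probe each, and for Mirg the rule found none. A probe for a Mirg transcript outside the called table and under another accession would not have been found. The position of AK081334, described below, makes it a candidate for such a probe. The symbols of the lncRNAs came from a list chosen on these same samples, so the direction of change of these probes is not independent evidence. The files give no sequence for the probes, and several of their targets overlap, so the probes of Meg3 and Gtl2 are not separate genes or replicates.

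Whole testes of male C57/BL6 mice were compared at 6 days of age (neonatal) and at 8 weeks of age (adult), with 3 arrays per age and RNA from pooled animals on each array. The RNA was copied with an oligo dT primer, so transcripts without a poly(A) tail were not the target. The arrays had 2 scan dates, and arrays that shared a scan date are called a slide below. The labels name no slide, so this grouping is inferred from the date. Replicates 1 and 2 of both ages shared slide 1, and replicate 3 of both ages shared slide 2. For replicate 3 the slide and the replicate therefore cannot be told apart. The 75th percentile of the signal was 2947, 2503 and 1385 on neonatal arrays 1 to 3 and 1856, 1425 and 747 on adult arrays 1 to 3. Each signal was divided by this percentile and put on the log2 scale, and this quantity is called the scaled log2 signal below. A spot that the scanner software did not call well above background is described as being in the background. The software also marked some spots as outliers, 30.7% and 25.4% on the neonatal and adult arrays of slide 2 against 6.11% to 10.7% on slide 1, and these were left out of the main comparison.

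The tests asked how each transcript differed between adult and neonatal testis. limma was fitted to all tested probes with the replicate number as a block, values below -7.22 were raised to that floor, and a transcript was called lower or higher where it changed at least 5-fold and its p, adjusted by Benjamini and Hochberg over all tested probes, was no more than 0.05. The number of arrays, 3 per age, limits the precision of every value. In bulk tissue fewer cells that make a transcript and less of it per cell cannot be told apart.

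Meg3 gives a lncRNA with growth-suppressing activity that lies just downstream of Dlk1 and is transcribed from the maternal chromosome. The probe for its transcript uc007pap (mm9 chr12:110779214-110783529, plus strand) had scaled log2 signals of 0.69, 0.96 and 1.07 on the neonatal arrays and of -3.89, -4.39 and -4.15 on the adult arrays. All 6 spots were well above background, and the adult values lay together far under the neonatal ones. Outlier marks on neonatal replicates 1 and 3 left only 1 complete pair, so this transcript was not tested in the main comparison. With the marked spots kept it was 33.1-fold lower in adult testis (log2 fold change -5.05, SE 0.20, adjusted p 8.1e-05, limma), with pair differences of -4.58, -5.35 and -5.22.

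A second Meg3 transcript, uc007par (mm9 chr12:110779214-110809935), starts at the same base and is longer. Its scaled log2 signals were -1.54, -1.33 and -0.65 on the neonatal arrays and -5.74, -6.38 and -6.51 on the adult arrays. The groups did not overlap, and the neonatal array of slide 2, which carried an outlier mark, was the highest. Without that spot, and so from the pairs of slide 1 alone, uc007par was 24.7-fold lower in adult testis (log2 fold change -4.63, SE 0.28, adjusted p 0.00135), and with it 32.9-fold lower (log2 fold change -5.04, SE 0.35, adjusted p 0.000334). The paired test of the methods did not pass for it on the 2 pairs. The RefSeq transcript of Meg3, NR_003633 (mm9 chr12:110783608-110806810), had scaled log2 signals of -3.53, -3.27 and -2.92 on the neonatal arrays and of -7.63, -7.28 and -7.87 on the adult arrays. Its adult spots were all in the background, so the change has only a lower bound: it was at least 12.1-fold lower in adult testis. The fitted log2 fold change was -3.98 (SE 0.16, adjusted p 0.000188), a value that depends on the floor. The bound depends on the processing as well: with the normexp background correction and an offset of 50 the log2 fold change was -0.83 and the transcript was not called. The correction and the offset changed together, here and in every normexp value below, so their parts were not told apart.

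The Gtl2 probes target other spliced forms from the same stretch. For uc007pav (mm9 chr12:110787367-110809935) the scaled log2 signal was -3.09, -2.87 and -2.22 on the neonatal arrays and -5.78, -5.94 and -5.24 on the adult arrays. Every spot was well above background, and in both ages the array of slide 2 was the highest. The transcript was 7.61-fold lower in adult testis (log2 fold change -2.93, SE 0.13, adjusted p 0.000221), with pair differences of -2.70, -3.07 and -3.02. With normexp the log2 fold change was -1.48, and it was no longer called. For uc007paq (mm9 chr12:110779214-110799917) the neonatal values were -4.05, -3.50 and -4.76 and the adult values -7.45, -7.16 and -6.94, the latter all in the background. It was at least 6.66-fold lower in adult testis, and by the fit, which depends on the floor, 8.02-fold lower (SE 0.32 on the log2 scale, adjusted p 0.00183). With normexp its log2 fold change was -0.81 and it was not called. Here, unlike uc007pav, the neonatal array of slide 2 was the lowest of its age.

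The remaining Gtl2 transcript, uc007pat (mm9 chr12:110782237-110809935), was the only tested lncRNA of the locus rule that missed the fold threshold. Its scaled log2 signals were -5.15, -4.85 and -4.46 on the neonatal arrays and -8.87, -8.61 and -6.22 on the adult arrays. Adult replicate 3 alone was well above background among the adult arrays, and even it lay under every neonatal array. The fit gave a 4.21-fold lower level in adult testis (log2 fold change -2.07, SE 0.16, adjusted p 0.000775). That fold rests on the floor and on adult replicate 3, since without that array and without the block the log2 fold change was -2.41 (adjusted p 0.00116) and passed the threshold, while without both arrays of replicate 3 it was -2.23 (adjusted p 0.00765) and did not. With normexp it was -0.36.

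Rian lies downstream of Meg3 and of the RNA antisense to Rtl1, and its introns carry C/D box small nucleolar RNAs. Its probe, for AB063319 (mm9 chr12:110884372-110890438), had signals of 985, 943 and 1093 on the neonatal arrays and of 48.3, 74.5 and 28.3 on the adult arrays before scaling. After scaling these were -1.58, -1.41 and -0.34 on the log2 scale in neonatal testis and -5.26, -4.26 and -4.72 in adult testis. All spots were well above background and unmarked, and the ages were far apart, with more spread within each age than for Dlk1. Rian was 12.4-fold lower in adult testis (log2 fold change -3.64, SE 0.33, adjusted p 0.00116), with pair differences of -3.68, -2.85 and -4.38. With normexp the log2 fold change was -2.59, still past the threshold.

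Of the 7 lncRNA transcripts 6 could be tested and 5 were called lower, where 9.62% of the 9396 tested lncRNA probes of the array were called lower and 19.9% higher. None of the 6 had a positive fold change. With marked spots kept, all 7 were tested and 6 were called lower, beside 10.6% of the 10578 lncRNA probes tested that way. Since the symbols came from a list of called lncRNAs, these counts are given as a description. The median log2 fold change of the 6 was -3.32, or -3.26 with the transcripts in the background set at their bounds, while the median of all tested lncRNA probes was 0.06. Ordered by the size of the fall among the 5731 lncRNA probes well above background on all 6 arrays, 683 of them called lower, and with marked spots kept, uc007pap was number 8, uc007par number 9, Rian number 109 and uc007pav number 308. The order depends on the processing, since uc007par was 24.7-fold lower without its marked spot, and with normexp and marked spots kept the log2 fold change was -4.09 for uc007pap and -3.02 for uc007par. The files do not tell which exons each probe touches.

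Dlk1, the paternally expressed gene at the centromeric end of the locus, encodes a membrane protein with EGF-like repeats that is shed from the cell. Its probe (NM_010052) gave signals of 118732, 112215 and 63960 on the neonatal arrays and of 2417, 1519 and 1038 on the adult arrays, with no saturated spot. On the scaled log2 axis these were 5.33, 5.49 and 5.53 in neonatal testis and 0.38, 0.09 and 0.47 in adult testis. The values within each age lay close together, with standard deviations of 0.10 and 0.20, and adult testis still gave a signal above the 75th percentile of the array. Dlk1 was 36.1-fold lower in adult testis (log2 fold change -5.17, SE 0.19, adjusted p 0.000503), from the pairs of slide 1, because the neonatal spot of slide 2 was marked as an outlier. With these 2 pairs the paired test of the methods, after adjustment, did not pass for Dlk1 (adjusted p 0.0586). With that spot kept it was 35.1-fold lower (log2 fold change -5.13, SE 0.14, adjusted p 3.52e-05), and the pair on slide 2 alone differed by -5.06, next to -4.95 and -5.39 on slide 1. By the size of its fall it stood at number 28 of the 14969 mRNA probes well above background on all 6 arrays, of which 2213 were called lower, again with marked spots kept.

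Rtl1, a gene derived from a retrotransposon that is needed in the placenta and in muscle, was in the background on every array. The signals of its probe (NM_184109) were 5.17, 3.17 and 4.84 on the neonatal arrays and 4.84, 3.27 and 1.69 on the adult arrays, so no difference was detectable at this signal and none was tested. Dio3, the gene at the far end, had signals of 17.6, 22.5 and 5.5 on the neonatal arrays and of 4.52, 4.91 and 2.46 on the adult arrays for its probe NM_172119. Only the spot of neonatal replicate 2 was well above background. Its scaled log2 signals of -7.39, -6.80 and -7.98 in neonatal and -8.68, -8.18 and -8.25 in adult testis lay mostly under the floor, and the fitted log2 difference was -0.14 (SE 0.14, adjusted p 0.395). Without a floor it was -0.98 (adjusted p 0.0373, limma), and with quantile normalization -1.14 (adjusted p 0.0598, limma), neither past the fold threshold. Every adult value was under every neonatal value before the floor was set, but at signals this near to the background a change of Dio3 could not be measured. With normexp, where the correction and the offset changed together, the log2 fold change of Dio3 was 0.42. The cause of this change of sign was not tested.

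Of the 3 mRNA transcripts 2 were tested and 1 was called lower, against 13.7% of the 15121 tested mRNA probes called lower and 12.6% called higher, or 15.4% of 19310 called lower with marked spots kept. Over the whole locus rule, 8 of the 10 transcripts were tested, 6 were called lower, and no tested transcript had a positive fold change in the main comparison. The median log2 fold change of the 8 was -3.32, or -3.26 with bounds, where that of all tested probes of both classes was -0.21. The median of the 2 tested mRNA transcripts was -2.66, and that of all tested mRNA probes was -0.40. The paternally expressed Dlk1 and the maternally expressed Meg3 were thus both lower in adult testis. In the main comparison Dlk1 was 36.1-fold and the Meg3 transcript uc007par 24.7-fold lower, each from 2 pairs. The other tested Meg3 and Gtl2 transcripts were 4.21-fold to 15.8-fold lower, in part by the floor. The brightest Meg3 probe, uc007pap, was not tested there and was 33.1-fold lower with marked spots kept. With normexp the log2 fold changes were less alike, -5.13 for Dlk1 and -2.96 for uc007par. With marked spots kept as well, they were -5.18 for Dlk1, -4.09 for uc007pap and -3.02 for uc007par.

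**Figure D1:**
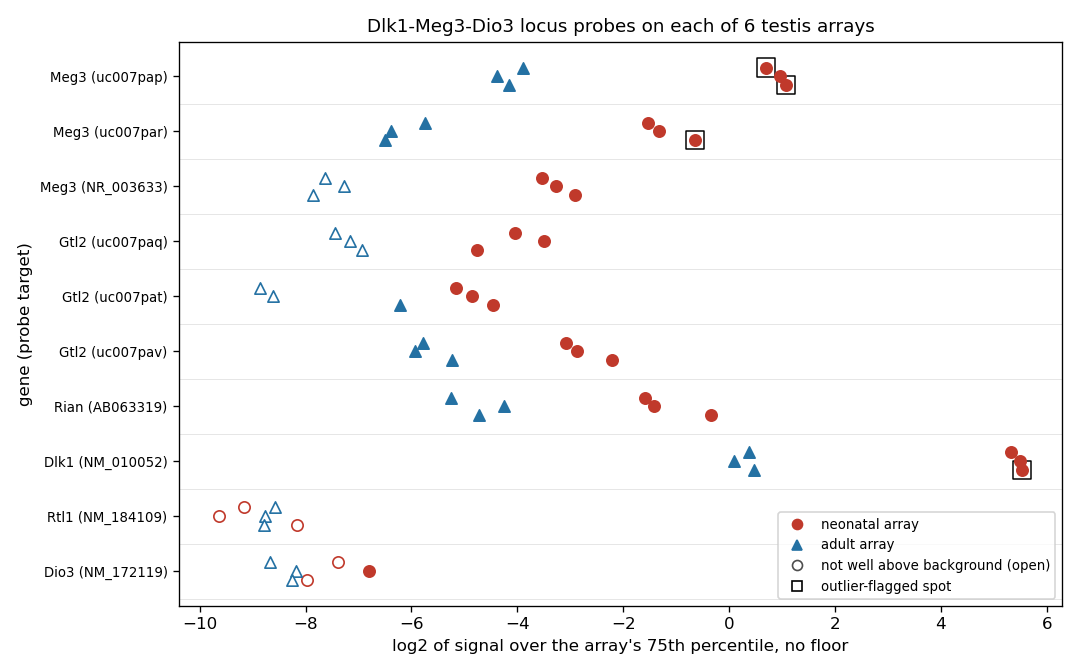
Scaled log2 signal without a floor (horizontal axis) of the 10 transcripts of the locus on each of the 3 neonatal arrays (circles) and 3 adult arrays (triangles), with open symbols for spots in the background and squares around outlier-marked spots. For the Meg3, Gtl2, Rian and Dlk1 probes the adult arrays lie to the left of all neonatal arrays. The same holds for Dio3, but Rtl1 and Dio3 lie at the dim end. The share of all probes on the array with such a separation was not counted.

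Between the first Meg3 base and the last lncRNA that the study's context table ties to Dio3, 10 further lncRNA probes had a position on mm9 in the supplementary tables, which hold mostly lncRNAs called on these samples. Of these 3 were called lower and 2 higher, where 9.62% and 19.9% of all tested lncRNA probes were. With normexp none of the 5 called probes kept a 5-fold change: the log2 fold changes were -0.90 for uc007pas, -1.25 for NR_002848, -0.21 for AK032566, 2.06 for AK015759 and 1.82 for AK019584. The RNA antisense to Rtl1, 6430411K18Rik (NR_002848, mm9 chr12:110829747-110831063), had scaled log2 signals of -4.14, -3.08 and -3.24 on the neonatal arrays and of -7.35, -8.83 and -5.55 on the adult arrays. Only replicate 3 of the adult arrays was well above background, and the ages did not overlap. It was called lower in adult testis (log2 fold change -3.18, SE 0.39, adjusted p 0.0026), but the size of the change rests on the floor, to which adult replicates 1 and 2 were raised. The antisense RNA of Rtl1 was thus measurable in neonatal testis, where the probe of Rtl1 itself was in the background.

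Another transcript near Rtl1, AK003491 (mm9 chr12:110834015-110835306), is listed as bidirectional to it. It had scaled log2 signals of -0.50, -0.21 and 0.08 on the neonatal arrays and of -2.76, -2.37 and -2.60 on the adult arrays. Its fall of 4.64-fold (log2 fold change -2.21, adjusted p 0.00148) missed the fold threshold, and with the marked neonatal spot of slide 2 kept it was 5.18-fold and passed. The transcript uc007pas, inside the Meg3 stretch, was at least 7.17-fold lower in adult testis. Around Rian, AK032566 was at least 4.20-fold lower and was called by its fitted change (log2 fold change -2.36, adjusted p 0.0059), while uc007pbc and AB076245, at least 3.21-fold and 3.43-fold lower, were not called. All 3 were well above background on the 3 neonatal arrays and in the background on the 3 adult arrays.

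Farther along the chromosome 4 more probes had a position. AK081334, 95.7 kb past the end of the Rian probe's target, had scaled log2 signals of 0.14, 0.46 and 0.77 on the neonatal arrays and of 1.87, 1.84 and 2.20 on the adult arrays. It was 2.85-fold higher in adult testis (log2 fold change 1.51, adjusted p 0.000954, limma) and missed the fold threshold. If mm9 and the later build GRCm38.p6 differ here by the same shift as at the Meg3 start, its target begins at miR-3072-5p, inside Mirg. Whether this probe reads a Mirg transcript was not tested. AK015759, at 259.6 kb, and AK019584, at 584 kb, were in the background on all neonatal arrays and well above it on all adult arrays, and were at least 8.83-fold and 8.17-fold higher in adult testis. The context table lists both as intergenic transcripts next to Dio3 and Begain. AK044800, at 535 kb, was 1.5-fold lower (log2 fold change -0.59, adjusted p 0.02), and its sign turned with normexp (0.20). The tested lncRNA probes from Meg3 to just past Rian all had negative fold changes in the main comparison, and the next probe, AK081334, a positive one. Of those with negative fold changes, uc007pat, AK003491, uc007pbc and AB076245 were not called, and AB076245 stood at -0.02 with normexp. Most of these probes came from lists of lncRNAs called on these same samples, so their shared sign is given as a description.

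**Figure D2:**
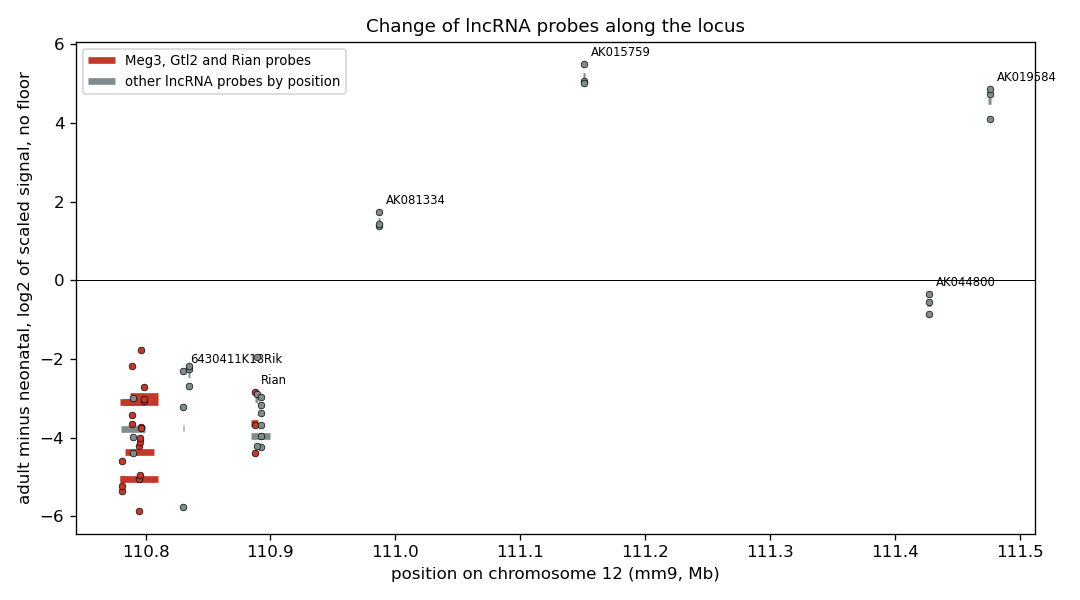
Adult minus neonatal difference of the scaled log2 signal without a floor (vertical axis) against the mm9 position on chromosome 12 in megabases (horizontal axis) for the Meg3, Gtl2 and Rian probes (red) and the 10 other lncRNA probes (grey); points are the 3 pairs of arrays with marked spots kept and bars span the transcript at the mean of the pairs. The red bars and the grey bars beside them lie under 0, and AK081334, AK015759 and AK019584 lie above it.

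The genes outside the cluster were looked at through the 10 nearest protein-coding genes with an mRNA probe on each side. Beyond Dlk1, 9 were tested, 2 were called lower and the median log2 fold change was -0.01. The called genes were Eml1, a microtubule-binding protein gene (log2 fold change -2.68, adjusted p 0.00113), and Evl, a regulator of actin (log2 fold change -2.38, adjusted p 0.00127), which missed the fold threshold at 4.79-fold with marked spots kept. Beyond Dio3, 7 were tested, 1 was called lower and 2 higher, with a median of 0.39. Traf3, an adaptor of immune signalling, was lower (log2 fold change -2.59, adjusted p 0.000675), and Ppp2r5c, a phosphatase subunit (2.97, adjusted p 0.0014, with 1 other of its probes called higher and 1 not called), and Mok, a protein kinase (2.67, adjusted p 0.0013), were higher. Over all tested mRNA probes 13.7% were called lower and 12.6% higher, and the counts of the flanks are too small to set apart from these shares. The flanks held changes in both directions, with medians above that of all tested mRNA probes, which was -0.40.

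The mRNAs whose pattern over the 6 arrays was most like that of Dlk1 were found by the root mean square difference of centred log2 signals among 12588 named genes well above background on all arrays. These were Kazald1 (0.0856), Fstl1 (0.127), Hsd11b2 (0.134), Tacr3 (0.147) and Tnfrsf11b (0.173). With marked spots kept they were 34.4-fold, 33.3-fold, 29.5-fold, 31.3-fold and 40.6-fold lower in adult testis. The RefSeq Meg3 probe NR_003633 was at the floor on all 3 adult arrays, so its comparison finds genes whose fall is near the floored size and its order is not one of measured profiles. The nearest of 12589 genes were Lbh (0.0731), Hs6st2 (0.0873), Vcan (0.0971), Fgf13 (0.108) and Foxc2 (0.114), all between 14.4-fold and 16.6-fold lower in adult testis with marked spots kept. Over 6 arrays of 2 ages such likeness measures chiefly the size of the difference between the ages.

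Genes that act with the locus were counted in lists. Beside each count of called genes below stand 13.7% lower and 12.6% higher over all tested mRNA probes, and with so few genes a list a count near these shares is no result about the list. For counts with marked spots kept, 15.4% of 19310 mRNA probes were called lower. Of the 29888 lncRNA and mRNA probes tested that way, 4708 were called higher. DLK1 resembles the ligands of Notch receptors and can hinder their signalling, and its close relative Dlk2 had no named probe. Of 14 genes on the Notch list 8 were tested, 2 were called lower and 1 higher, with a median log2 fold change of -1.91, or -1.85 with bounds. The receptor Notch3 had scaled log2 signals of -0.72, -0.57 and 0.35 on the neonatal arrays and of -3.55, -3.90 and -2.69 on the adult arrays (log2 fold change -3.07, adjusted p 0.000244), and the ligand Dll4 was also lower (-2.35, adjusted p 0.00126), though at 4.84-fold it missed the fold threshold with marked spots kept. With those spots 12 were tested and 3 were called lower, Notch3 and, named after their values were seen, the receptors Notch1 (log2 fold change -3.40) and Notch2 (-2.38). The ligand Dll3 rose, from 1.51, 1.21 and 1.59 in neonatal to 4.46, 4.40 and 5.10 in adult testis (log2 fold change 3.22, adjusted p 0.000244). The Notch list therefore held called changes in both directions.

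DIO3 works with the activating deiodinases, the transporters and the receptors of thyroid hormone, and of 13 such genes 10 were tested and 1 was called lower, with a median of -0.69, or -0.60 with bounds. That gene was Crym, which encodes a thyroid hormone-binding protein of the cytosol, with scaled log2 signals of -0.55, 0.04 and 0.27 on the neonatal arrays and of -4.19, -4.02 and -3.31 on the adult arrays (log2 fold change -3.76, adjusted p 0.000175). With marked spots kept 12 were tested and 2 were called lower, Crym and the receptor Thra (log2 fold change -3.97, adjusted p 7.65e-05). The activating deiodinase Dio2, named here after its values were seen, was well above background on all 6 arrays and 3.25-fold higher in adult testis (log2 fold change 1.70, adjusted p 0.00185), short of the fold threshold.

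The marks of the locus are set by DNA methyltransferases and kept by factors such as ZFP57 and TRIM28. Of 15 genes on this list 12 were tested, 3 were called lower and 1 higher, with a median of -1.35. Dppa3, which shields imprints in the early embryo, was lower (log2 fold change -3.89, adjusted p 0.000507), as was the methyltransferase gene Dnmt3a (-3.77, adjusted p 0.000568); Dnmt3b, named after its values were seen, was lower too (-3.13, adjusted p 0.00291). Dnmt3l, the cofactor of these enzymes, was higher, from -2.23, -2.11 and -2.14 on the neonatal arrays to 2.04, 1.63 and 2.11 on the adult arrays (log2 fold change 4.01, adjusted p 0.000979). All 5 Dnmt3b probes and both Dnmt3a and Dnmt3l probes gave the same call as the brightest one. Dnmt3a and Dnmt3b thus moved opposite to the cofactor Dnmt3l.

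The machinery that handles the small RNAs of the locus was counted as well. Of 9 genes of microRNA processing 6 were tested and 2 were called lower, with a median of -0.80, namely the small RNA-binding protein gene Ago1 (log2 fold change -2.61, adjusted p 0.00109) and Dicer1 (-2.46, adjusted p 0.000686). Of the 4 core proteins of C/D box small nucleolar particles 3 were tested and 1, Nop56, was called lower (-2.97, adjusted p 0.000895), with a median of -2.25. Of 11 relatives of Rtl1 from the same family of retrotransposons 7 were tested and 2 were called lower, with a median of -2.20. Those were Rtl3, at least 7.32-fold lower in adult testis, and Rtl8c (log2 fold change -2.42, adjusted p 0.00172). Rtl1 was in the background, whereas its relatives Rtl8a, Rtl8b and Rtl8c were well above it on all 6 arrays.

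Whole testis changes its cell types between these ages, and the marker lists are given beside the locus. The most abundant gene of a list here means only the one whose probe had the highest mean scaled log2 signal within an age. Where the ages differ both genes are named. The signals of different probes do not measure which transcript is present in the larger amount. The labelled tissue carried its markers: the spermatid list summed to 0.474, 0.459 and 0.559 times the 75th percentile on the neonatal arrays and to 1093, 1314 and 1505 on the adult arrays, with Tnp1 the most abundant in neonatal and Prm2 in adult testis. Of its 6 genes 5 were tested and all 5 were called higher, with a median log2 fold change of 12.47, led by Prm2 (14.32) and Tnp2 (14.18). Of 6 spermatocyte genes 4 were tested and 2 were called higher, Piwil1 (6.31) and Spo11 (4.57), with a median of 2.69, summed levels of 16.6, 13.6 and 10.3 against 73.6, 89 and 87.7, with Sycp1 the most abundant in neonatal and Piwil1 in adult testis. The other genes of this list, named after their values were seen, varied: Dmc1 fell (log2 fold change -2.06, adjusted p 0.000435) and Sycp1 rose (0.81, adjusted p 0.0146) without reaching the fold threshold, and with marked spots kept Hormad1 was called higher (3.03) and Sycp3 was not called (0.09), with adult replicate 1 at -0.61 far under the other adult arrays at 3.94 and 3.19. The spermatid list was thus higher on all adult arrays, while the spermatocyte genes were mixed.

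Other lists differed among themselves. The fetal Leydig list summed to 6.52, 6.37 and 6.72 on the neonatal arrays and to 0.26, 0.217 and 0.184 on the adult arrays, 29.7-fold less, with Thbs2 the most abundant in neonatal and Pdgfra in adult testis. Of its 3 genes 2 were tested and 1, Thbs2, was called lower (log2 fold change -5.50), with a median of -3.70, or -3.51 with bounds. The list of mesenchyme and fibroblasts summed to 136, 131 and 194 against 19.4, 26 and 27.1, a ratio of 6.37, with Dcn the most abundant; of 6 genes 4 were tested and 2 were called lower, Col3a1 (-4.61) and Col1a2 (-4.11), with a median of -3.07. Each sum follows its brightest genes, and these differed. Dcn fell 3.09-fold, while Col1a1, next to it in neonatal signal, was not tested and fell 17-fold with marked spots kept. Col3a1 fell 24.5-fold and Col1a2 17.2-fold, and Mc2r of the fetal Leydig list has a bound of only 2.85-fold. Pdgfra stands on both lists, and these genes were chosen after their values were seen. The ratios of the sums are therefore not set against the fall of Dlk1.

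The Sertoli list summed to 81.3, 87.9 and 70.7 on the neonatal arrays and to 23.9, 21.1 and 19.1 on the adult arrays, a ratio of 3.75, with Inha the most abundant. Of its 9 genes 4 were tested and 2 were called lower, Fshr (-3.05) and Gata4 (-2.34), with a median of -2.10. For spermatogonia the sums were 99.2, 108 and 98 against 21.4, 22.8 and 18.6, with Uchl1 the most abundant and Gfra1 in the background on all arrays. Of its 8 genes 6 were tested, 3 were called lower and 1 higher, with a median of -2.39, namely Sall4 (-4.43), Stra8 (-2.61), Lin28a (-2.49, named after its values were seen) and, higher, Id4 (2.75). Endothelial genes summed to 9.02, 10.2 and 16.2 against 2.59, 2.25 and 3.68, with Cdh5 the most abundant, and of 6 tested 2 were called lower, Pecam1 (-3.27) and Cdh5 (-2.53), with a median of -1.84. These 3 sums were lower on every adult array than on any neonatal array.

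Peritubular myoid genes summed to 21.9, 22.1 and 27.1 against 5.46, 4.55 and 6.72, with Myh11 the most abundant and Cnn1 in the background throughout; 5 of 6 were tested, none reached the fold threshold, and the median was -1.91. Markers of Leydig cells of any age summed to 43, 46.9 and 49.5 against 85.7, 73.3 and 70.3, with Hsd3b1 the most abundant in neonatal and Insl3 in adult testis. Of these 10 genes 6 were tested, none reached the fold threshold, and the median was -0.37; with marked spots kept 2 of 10 were called higher, Hsd3b6 (log2 fold change 6.18) and Insl3 (3.49). On this scale the sum of the Leydig list was therefore higher in adult testis, where that of the fetal Leydig list was lower. Macrophage genes summed to 5.16, 5.05 and 4.09 against 4.53, 4.65 and 4.4, with Csf1r the most abundant in neonatal and Mrc1 in adult testis, 2 of 5 tested, none past the fold threshold and a median of 0.37.

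Some lists mark tissue that can come along with a dissected testis. Epididymis genes summed to 6.37, 0.558 and 7.04 on the neonatal arrays and to 0.174, 0.356 and 0.522 on the adult arrays, with Crisp1 the most abundant in neonatal and Adam7 in adult testis and Lcn8 in the background throughout; 5 of 6 were tested, 1, Defb42, was called lower, at least 64.4-fold, and the median was -0.36. The bound for Defb42 counts all arrays, with a marked spot that the main comparison left out. Neonatal replicate 2 was low on this list, mainly through Crisp1 at -4.34 against 2.43 and 2.51. Adipose genes summed to 0.654, 1.56 and 0.794 against 0.148, 0.202 and 0.194, with Adipoq the most abundant in neonatal and Cfd in adult testis, and of 4 genes 2 were tested and both were called lower, Adipoq (-2.99) and Plin1 (-2.36), with a median of -2.68. Erythroid genes summed to 4.69, 5.98 and 2.3 against 2.75, 2.57 and 2.11, with Hba-a1 the most abundant in neonatal and Alas2 in adult testis, 2 of 4 tested, none past the fold threshold and a median of 1.65; with marked spots kept 3 were tested and Hba-a1 was called lower (log2 fold change -3.78). With marked spots kept, more genes were also called in the lists of fetal Leydig (2 of 3 lower), mesenchyme (4 of 6 lower), Sertoli (4 of 8 lower), spermatogonia (5 of 7 lower), adipose (3 of 4 lower), spermatocyte (3 of 6 higher) and spermatid (6 of 6 higher). Beside these counts stand 15.4% of 19310 mRNA probes called lower that way, and 4708 of 29888 lncRNA and mRNA probes called higher. The part of any of these cell types in the fall of the locus transcripts was not tested.

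**Figure D3:**
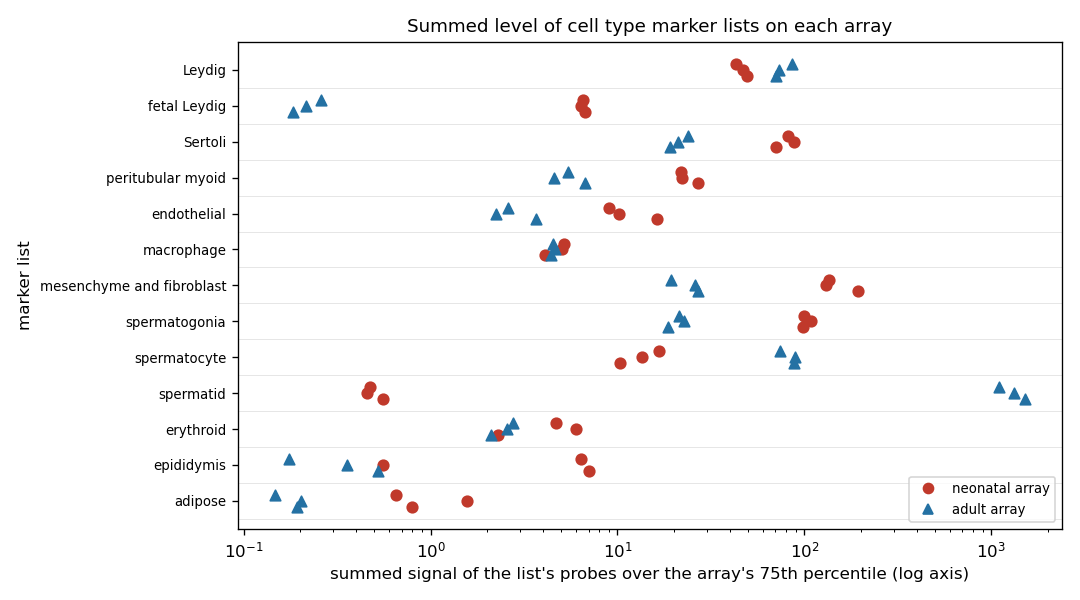
Summed signal of each marker list, as a multiple of the array's 75th percentile on a log axis (horizontal), on the 3 neonatal arrays (circles) and 3 adult arrays (triangles). The spermatid list rises from under 1 on the neonatal to at least 1093 on the adult arrays, the fetal Leydig, Sertoli, mesenchyme and spermatogonia lists fall, and epididymis has 1 neonatal array apart from the others.

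Promoters of Dlk1, Meg3 and Dio3 are shown because Dlk1 and Meg3 fell together while Dio3 was too dim to compare. The sequences are the 250 bases before the start in the RefSeq table on GRCm38.p6, all on the plus strand, at chr12:109540746-109540995 for the first of 2 Meg3 entries, chr12:109452573-109452822 for Dlk1 and chr12:110278980-110279229 for Dio3. Capitals mark matches on either strand to the cyclic AMP response element TGACGTCA, to the letters TATAAA of a TATA box, to the CCAAT box and to the letters GGGCGG of a GC box, and each sequence is printed 5′ to 3′.
Meg3: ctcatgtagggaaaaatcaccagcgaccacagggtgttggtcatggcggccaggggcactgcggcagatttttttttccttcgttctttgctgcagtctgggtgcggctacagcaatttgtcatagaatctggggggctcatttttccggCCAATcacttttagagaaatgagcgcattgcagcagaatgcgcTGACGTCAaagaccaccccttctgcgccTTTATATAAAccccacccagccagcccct
Dlk1: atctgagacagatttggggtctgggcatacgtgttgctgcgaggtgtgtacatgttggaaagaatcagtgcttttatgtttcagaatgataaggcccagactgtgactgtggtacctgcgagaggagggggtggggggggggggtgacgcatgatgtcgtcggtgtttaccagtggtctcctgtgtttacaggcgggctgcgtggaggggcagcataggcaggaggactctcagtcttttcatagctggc
Dio3: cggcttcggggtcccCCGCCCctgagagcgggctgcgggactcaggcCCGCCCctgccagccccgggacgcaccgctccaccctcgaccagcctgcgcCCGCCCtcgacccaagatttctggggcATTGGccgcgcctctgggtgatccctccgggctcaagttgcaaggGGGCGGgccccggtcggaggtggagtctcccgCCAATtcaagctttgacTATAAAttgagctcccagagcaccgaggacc
Among the 32851 promoters of the table, the same 250 bases held TGACGTCA in 1.55%, TATAAA in 12.4%, CCAAT in 33.8% and GGGCGG in 32.7%. The Meg3 window held TGACGTCA from 57 to 50 bases before the start and TATAAA on the plus strand from 25 to 20 bases before it, overlapping a match on the minus strand. Both motifs occurred together in 39 promoters of the table (0.119%). No other pair of motifs was counted, so this share is not set against others. Dio3 had TATAAA from 31 to 26 bases before the start, 2 CCAAT matches and 4 GGGCGG matches. The Dlk1 window held none of these letters. A match is a description of the letters and not of a bound site.

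The arrays had no probes for mature small RNAs, so the microRNAs of the locus were not measured, and their sequences are shown as part of what the locus encodes. Between Dlk1 and Dio3 the RefSeq table on GRCm38.p6 lists 114 mature microRNA entries, and 3 of them lie inside the Meg3 gene, 2 inside 6430411K18Rik, 6 inside Rian, 19 inside Mirg, for which the rule found no probe, and 84 in none of these genes. Inside Rian the table also lists 11 small nucleolar RNA genes, of 19 between Dlk1 and Dio3. The 113 distinct mature sequences have 104 distinct seeds, and 9 seeds are shared by 2 sequences each, such as that of miR-370-5p and miR-1193-3p. The mature microRNAs inside Meg3 and 6430411K18Rik, and the pair that shares a seed, are printed 5′ to 3′ with the seed, bases 2 to 8, in capitals.
miR-1906: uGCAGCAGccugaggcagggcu
miR-770-5p: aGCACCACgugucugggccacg
miR-770-3p: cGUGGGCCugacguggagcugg
miR-433-5p: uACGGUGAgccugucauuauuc
miR-433-3p: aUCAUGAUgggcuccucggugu
miR-370-5p: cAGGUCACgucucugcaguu
miR-1193-3p: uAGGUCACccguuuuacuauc
They lie on the plus strand at chr12:109544588-109544609 (miR-1906), chr12:109563710-109563731 and chr12:109563744-109563765 (miR-770-5p and miR-770-3p), chr12:109591729-109591750 and chr12:109591781-109591802 (miR-433-5p and miR-433-3p), chr12:109618270-109618289 (miR-370-5p) and chr12:109715750-109715770 (miR-1193-3p). No pair among the microRNAs of Meg3 and 6430411K18Rik shares a seed. The genes of miR-433 lie in the RNA antisense to Rtl1, and those of miR-770 and miR-1906 in Meg3.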

How the data were processed

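RNA from neonatal and adult testis was read on 6 one-colour arrays. The deposited scanner files give spot intensity after background subtraction and detrending by Feature Extraction 10.5.1.1, with no scaling between arrays, and the median intensity of spot and background. The authors also deposited log2 values for 8265 lncRNA and 18506 mRNA probes, and these equal, within 0.001, the log2 of the signal floored at 5 minus a constant per array for 100% of values on each array.

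Intensities were averaged per probe, scaled to the 75th percentile over non-control probes, floored at -7.22 and put on the log2 scale. Controls, outlier-marked spots and 85 probes of other classes were left out. A probe needed 1 array well above background and 2 complete pairs. The model was fitted in limma 3.58.1 under R 4.3.3 (prior degrees of freedom 2.07), and Python 3.11.15, numpy 2.4.6 and pandas 2.3.3 did the rest. The fit was tested on simulated data, the outcome is not reported here, and no result rests on it. The arrays give no counts, and the lowest signal well above background was 24, 14.5 and 8.76 on the neonatal and 14.2, 15.2 and 6.09 on the adult arrays. At least N-fold is a bound with the background arrays set at that signal, or at their own if higher. It is not a strict bound, since a spot can be in the background at a higher signal. AK032566 on adult array 3, for example, was in the background at 11.8.

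To check the pairing, deviations from the age mean were correlated between ages across 7333 probes, which are not independent. The correlation was 0.497, 0.429 and 0.777 for the same replicate number, 0.508 and 0.469 for other numbers on the same slide, and -0.690 to -0.556 between slides. Within slide 1 these values show no added pairing by number, and replicate 3 cannot be told apart from slide 2. The block was kept because the methods name a paired test.

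The members and lists were chosen with earlier results of these data known. Named genes were every member, other lncRNAs by position, and of each list up to 2 called genes per direction with the largest change and, for markers, the most abundant, with the probe of highest mean standing for a gene; likeness named 5 genes per target. mRNA probes were named through RefSeq accessions on GRCm38.p6 (21901 of 22464, 97.5%), and lncRNA positions are from supplementary tables held in part, on mm9. Alternatives changed the background correction, scaling, floor, filter, marked spots, values, block, prior variance, test, fold threshold and replicates.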

Additional observations from a re-analysis of the deposited data

How the results depend on the processing

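Of 8 tested transcripts, 6 were called lower in the main comparison. The count was 3 with the normexp background correction and between 4 and 8 under the other alternatives that gave a test, and no transcript was called higher under any. With normexp and an offset of 50 the log2 fold changes were -0.83 for NR_003633, -0.81 for uc007paq and -1.48 for uc007pav, short of the fold threshold. Those of uc007par (-2.96), Rian (-2.59) and Dlk1 (-5.13) passed it. Dio3 changed sign to 0.42 with normexp, with and without marked spots; the cause was not tested. Over its 28 alternatives Dio3 lay between -1.14 and 0.42. Without the replicate block, the pairing being in doubt, and with the slide as the block, the count was 6. Leaving out arrays or pairs gave 4 to 7: without replicate 1 or 2, or without neonatal replicate 1 or 2 and no block, it was 4, because uc007par and Dlk1 then had too few unmarked spots to be tested. Combinations with marked spots kept were chosen after seeing the data, and with them it was 7 without each replicate in turn and without the block, and 4 with normexp. The methods' paired test gave 5, without uc007par (p 0.0958 after adjustment), and 4 after adjustment, without Dlk1 as well (0.0586). uc007pat was called after quantile normalization (-3.19), after scaling to the median (-2.34), when the floor was dropped (-3.08) or was a signal of 5 before scaling (-2.82), in the authors' values (-3.08), at a fold of 2, and without adult replicate 3 and no block, and was not called with normexp (-0.36). On slide 2 alone, 1 pair without a test and with marked spots kept, the differences were -5.87 for uc007par, -4.30 for NR_003633, -2.18 for uc007paq, -1.76 for uc007pat, -3.02 for uc007pav, -4.38 for Rian and -5.06 for Dlk1. The median log2 fold change of all tested probes was -0.21, and -0.58 with quantile normalization, -0.44 with the median shift, -0.60 with the authors' values and 0.26 with normexp. The last called 4191 probes where the main comparison called 6760, 68.7% of them higher where it was 55.9%. Without replicate 1 or 2 the calls were 3436 and 3345, with only 15206 and 14955 probes tested where the main comparison tested 24517. Signal over background limits Rtl1, Dio3 and the adult values of NR_003633, uc007paq and uc007pat.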
